A study of Mus musculus with 14 samples.

Results

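Liver sinusoidal endothelial cells (LSECs) isolated 7 days after a single dose of carbon tetrachloride (CCl4) were compared with LSECs of healthy livers, to ask which transcripts had and had not returned to the healthy level a week after injury. The 4 day 7 samples and the 4 healthy samples were taken by their labels, 8 of the 14 samples in the series. All mice were male Balb/c. By the labels both the healthy and the injured mice were 10 to 12 weeks old, and the methods of the study give a somewhat older range. The injured mice were given 0.5 µL/g CCl4 in mineral oil intraperitoneally, and the healthy mice received no injection. The effects of the toxin and of its oil vehicle thus cannot be told apart. LSECs were collected by sorting CD32+ F4/80- cells (CD45- in the methods) and were not cultured before total RNA was extracted. The other samples, 4 at day 3 and 2 at day 1 after the same dose, were used to estimate the spread of each gene and to show what day 7 was a return from. Comparisons with day 1 and day 3 used the same 4 healthy samples, so they are not independent of the comparison at day 7.

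LSECs line the liver sinusoids with a fenestrated endothelium that lacks a continuous basement membrane. They take up waste molecules through scavenger and lectin receptors such as the stabilins, the mannose receptor Mrc1 and Fcgr2b, the receptor also called CD32. CCl4 is converted to a toxic radical by hepatocytes around the central vein. The necrosis that follows is cleared by recruited macrophages while hepatic stellate cells, the pericytes of the sinusoid, deposit collagen and hepatocytes and LSECs divide to refill the lobule.

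Libraries held 85458439 to 103912264 gene counts in healthy LSECs and 46401496 to 86318681 in day 7 LSECs. Of 54524 genes in the table, 26626 had enough counts to be tested. Levels are given as CPM, counts relative to library size after scaling for library composition, always in the order of the replicate numbers. Fcgr2b, whose product was used to sort the cells, was at 3397, 2606, 2912 and 2443 CPM in healthy and 2555, 1380, 1730 and 1706 CPM in day 7 LSECs, and the sinusoidal receptor Stab2 was above 1000 CPM in all 8 samples. A gene was called when its Benjamini-Hochberg adjusted p in edgeR's quasi-likelihood test was under 0.05, and fold changes are on the log2 scale with their standard errors (SE). The labels number the samples of a group but do not say whether each came from its own mouse, so these p-values measure the spread between samples. A gene was counted as within 2-fold of healthy when the whole 95% interval of its fold change lay inside that bound.

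At day 7, 846 genes were called against healthy LSECs, 3.18% of those tested. Of these, 582 were higher (2.19%) and 264 were lower (0.992%). The rises were large and the falls were small. The median called rise was 2.54 on the log2 scale against -0.87 for the falls, and 219 genes rose more than 8-fold whereas 3 fell by as much. A further count of 7024 genes (26.4%) had their whole interval within 2-fold of healthy, with 29 genes in both sets. For 18785 genes (70.55%) neither statement could be made, so for most genes a return to baseline was not resolved with 4 samples a group. This share depended on abundance, since 57.56% of genes with a mean of 10 CPM or more lay within 2-fold but 8.58% of those below it. The median log2 fold change over all genes was 0.02. All 4 day 7 samples lay on one side of all 4 healthy samples for 780 of the called genes, and for 20.8% of all tested genes. On the same spread estimate 1915 genes (7.19%) were called at day 3 and 1080 (4.06%) at day 1.

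The split between rises and falls depended on which samples were fitted and how they were scaled. With the 8 samples alone 3156 genes were called, 46.0% of them higher, where 68.79% were higher with all 14 samples. Scaling by library size alone gave 713 calls with 86.8% higher. Of the 846 genes, 829 were also called in the same direction with the 8 samples alone. Every sample left out in turn moved the count, to 193, 252, 264 and 962 calls without healthy replicates 1 to 4 and to 1509, 236, 338 and 411 calls without day 7 replicates 1 to 4, except that the 962 calls without healthy replicate 4 were within 1.5 times of the count with all samples.

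**Figure D1:**
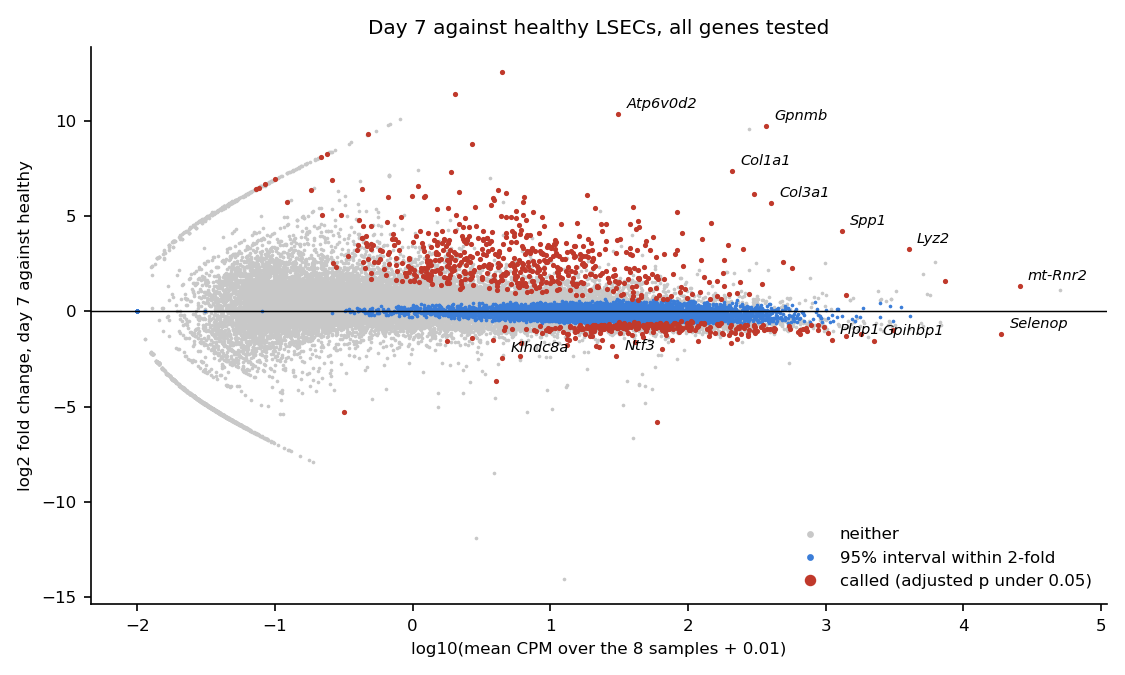
Each point is a gene, with its mean CPM over the 8 samples on the x axis (log10) and its log2 fold change at day 7 against healthy LSECs on the y axis. The 846 called genes are red and the genes whose 95% interval lay within 2-fold are blue; called rises reach further from 0 than called falls, and the blue genes are mostly abundant.

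Genes of lipid-laden, lysosome-rich macrophages were among the highest rises. Gpnmb (chromosome 6, 49036546 to 49070929, GRCm38), a lysosomal membrane glycoprotein, was at 0.0299, 1.74, 0.874 and 0.824 CPM in healthy LSECs and at 543, 1095, 916 and 398 CPM at day 7. Every day 7 sample was far above every healthy sample, an 854-fold difference (95% interval 180 to 4060, adjusted p = 0.00179). Its level was 26.9 and 5.3 CPM in the day 1 samples and 94.1, 110.3, 132 and 287 CPM at day 3, so the highest values of the series were those at day 7. Atp6v0d2 (chromosome 4, 19876841 to 19922605), a subunit of the proton pump that acidifies lysosomes, was counted in only 2 of the 4 healthy libraries, at 0, 0.129, 0.0624 and 0 CPM. At day 7 it stood at 42.8, 75.5, 88.7 and 42.2 CPM, a log2 fold change of 10.33 ± 1.22 (SE, adjusted p = 0.00191). It was also higher at day 7 than at day 3, when it was at 1.02, 0.749, 2.95 and 4.3 CPM, by 4.78 ± 0.92 (SE, adjusted p = 0.0223). In that comparison 472 genes (1.77%) were called, 110 of them higher at day 7.

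Of the 16 tested markers of injury-associated macrophages, 10 rose, none fell and 1 lay within 2-fold, with a median log2 fold change of 3.10 beside 0.02 over all genes. Trem2, a lipid-sensing receptor of these macrophages, went from 2.1, 5.64, 5.1 and 2.54 CPM to 67, 104, 117 and 47.3 CPM, 21.8-fold (adjusted p = 0.00179). Osteopontin (Spp1) rose from 179, 71.7, 125 and 172 CPM to 2557, 5238, 1634 and 567 CPM, where replicate 2 was highest and replicate 4 lowest (log2 fold change 4.19 ± 0.66, adjusted p = 0.00752). The tetraspanin Cd63 rose by 2.68 ± 0.36 (adjusted p = 0.00481) and the elastase Mmp12 by 4.12 ± 0.61 (adjusted p = 0.00547). Fabp5 was the member within 2-fold, at 385, 346, 332 and 195 CPM in healthy LSECs and 277, 312, 434 and 309 CPM at day 7. The oxidised-LDL receptor Olr1, which was outside the naming rule and chosen after its values were seen, rose by 3.86 ± 0.44 (adjusted p = 0.00179).

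Lysosomal and lipid genes did not move as blocks. Of 41 lysosomal genes 7 rose and 1 fell, and 22 lay within 2-fold. Of the 7, Atp6v0d2, Cd63, Ctsk and Ctss were counted among macrophage markers too, and the fall was the proton pump subunit Atp6v1h. Without day 7 replicate 2 there were 3 rises in this list. The protease Ctsd rose from 789, 990.3, 1118 and 1070 CPM to 1809, 2008, 1987 and 1465 CPM (0.87 ± 0.19, adjusted p = 0.0271), and Mitf, a transcription factor of lysosomal genes, rose by 2.06 ± 0.31 (adjusted p = 0.006). Ctsb, Ctsl and Lamp1 lay within 2-fold, with log2 fold changes of 0.45, -0.32 and -0.33. Rragd, a GTPase that signals lysosomal nutrients and was chosen after its values were seen, rose from 0.659, 1.03, 0.78 and 0.744 CPM to 3.15, 7.73, 4.81 and 5.92 CPM (2.75 ± 0.36, adjusted p = 0.00444). Among 24 lipid handling genes 5 rose, none fell and 11 lay within 2-fold, and without day 7 replicate 2 there were 2 rises. Lipoprotein lipase (Lpl) was at 11.7, 39.98, 48.6 and 27.5 CPM in healthy and 292, 519, 432 and 199 CPM in day 7 LSECs, an 11.3-fold rise (adjusted p = 0.00481). The fatty acid carrier Fabp3 rose by 5.37 ± 0.99 (adjusted p = 0.0135). The cholesterol exporter Abca1 rose by 1.28 ± 0.26 (adjusted p = 0.0197) and the desaturase Scd1 by 1.92 ± 0.40 (adjusted p = 0.0241). Apoe and Cd36 lay within 2-fold, at -0.26 and -0.02.

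Many collagen genes had not returned. Of 24 collagens and collagen-modifying enzymes 14 rose, none fell and 5 lay within 2-fold. The list, which holds fibrillar collagens and others such as Col6a3, had a median log2 fold change of 3.15. The same list had a median of 2.72 at day 3 with 16 called higher, and of -0.82 at day 1 with none called. Col1a1 (chromosome 11, 94936224 to 94953042), a chain of type I collagen, was at 2.17, 1.9, 4.41 and 1.82 CPM in healthy LSECs and at 21.3, 1214, 174 and 259.7 CPM at day 7 (log2 fold change 7.34 ± 1.24, adjusted p = 0.00961). The groups did not overlap, but the day 7 samples differed widely, with replicate 2 highest and replicate 1 lowest. Col3a1, the type III chain, showed the same order at 107, 2094, 344 and 599 CPM against 16.1, 11.5, 19.96 and 13.1 CPM (5.70 ± 0.92, adjusted p = 0.00779), and so did Col1a2 at 75.5, 1691, 241 and 358 CPM against 9.91, 6.54, 9.45 and 7.6 CPM (6.14 ± 0.97, adjusted p = 0.00752). Col5a1, which seeds type I fibrils, and Col14a1, which binds their surface, rose by 5.21 ± 0.71 and 3.90 ± 0.61 (adjusted p = 0.00481 and 0.00707). The small proteoglycan Lum, a stellate and matricellular gene of both lists, rose by 3.81 ± 0.61 (adjusted p = 0.00779). The crosslinking enzyme Lox rose by 5.28 ± 0.80 (adjusted p = 0.006). Collagen-modifying enzymes that many cell types use, Plod1 and P4ha1, lay within 2-fold at -0.22 and -0.20.

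Of 32 matrix proteases, inhibitors and matricellular genes 16 rose, none fell and 2 lay within 2-fold, with a median of 2.51. Leaving out 1 sample gave 9 to 21 rises. Timp1, an inhibitor of matrix metalloproteinases, was at 2.93, 2.17, 1.47 and 1.41 CPM in healthy LSECs, 75.3 and 53.5 CPM at day 1, 56.3, 52.5, 25.2 and 17.1 CPM at day 3 and 38.6, 111, 11.6 and 32.5 CPM at day 7 (4.60 ± 0.65, adjusted p = 0.00481). Fibronectin (Fn1) rose from 8.02, 6.47, 4.64 and 26.6 CPM to 213, 566, 139.9 and 208 CPM (4.62 ± 0.66, adjusted p = 0.00481). The order of day 7 samples in Timp1 and Fn1 was not that of Col1a1. Tenascin C (Tnc) rose by 6.37 ± 1.20 (adjusted p = 0.0148) and the proteoglycan Vcan by 5.56 ± 0.79 (adjusted p = 0.00481). Vcan was highest at day 1, at 58.6 and 24.5 CPM against 7.15, 15.3, 2.42 and 4.27 CPM at day 7. The matrix protein Ltbp2, the calpain Capn6 and the adhesion protein Svep1 rose by 6.02 ± 1.04, 6.09 ± 0.72 and 5.46 ± 0.93 (adjusted p = 0.0107, 0.00191 and 0.00977). Col6a3, Scube1 and Cpxm1 rose by 5.48 ± 0.80, 5.82 ± 1.12 and 5.45 ± 0.73 (adjusted p = 0.00514, 0.0164 and 0.00481). Cd109, a membrane protein that binds TGFβ, was at 0.0399, 0, 0 and 0 CPM in healthy and 2.55, 11.2, 6.02 and 1.76 CPM in day 7 LSECs (adjusted p = 0.00481).

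Basement membrane genes are set beside all tested genes, of which 2.19% were called higher and 0.992% lower. Of 19 basement membrane genes tested 3 rose, none fell and 4 lay within 2-fold, and the median was 0.36. The 3 were Col15a1 at 6.19 ± 1.30 (adjusted p = 0.0236), Lama2 at 4.13 ± 0.80 (adjusted p = 0.0169) and Lamb1 at 3.40 ± 0.68 (adjusted p = 0.0192), and without day 7 replicate 2 the list had no call. The main chains of type IV collagen were not called. Col4a1 was at 438, 398, 509 and 367 CPM in healthy, 1284 and 1254 CPM in day 1, 632, 666, 794 and 1587 CPM in day 3 and 275, 619, 596 and 703 CPM in day 7 LSECs (adjusted p = 0.555 at day 7). Its day 7 values spanned the healthy range, with a log2 interval of -0.33 to 1.04. Col4a2, its neighbour on the same chromosome, had an interval of -0.04 to 1.19 (adjusted p = 0.268). The abundant members within 2-fold were Sparc, Nid1 and Lama4, at 0.25, 0.32 and -0.14.

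**Figure D2:**
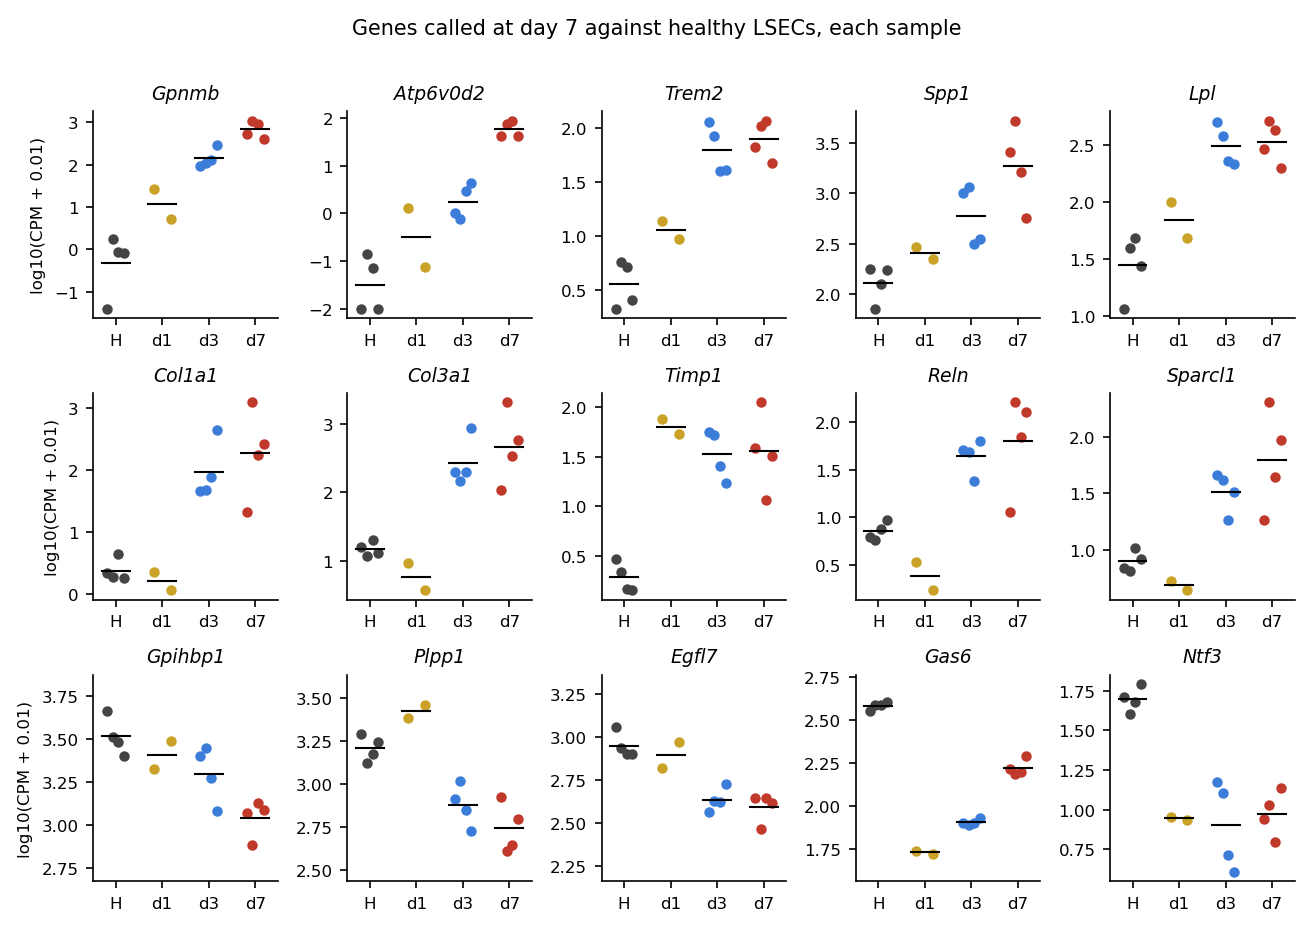
Each point is a sample and each bar a group mean on the log10(CPM + 0.01) scale, for healthy (H), day 1, day 3 and day 7 LSECs, with an axis of its own for each gene. In all 15 genes the day 7 samples lie apart from the healthy samples. In the middle row the day 7 points spread widely, from 21.3 to 1214 CPM in Col1a1, and in the bottom row all day 7 points lie below the healthy ones.

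Markers of other liver cells moved with both groups of rises. Of 20 stellate cell markers 16 rose, of which Col1a1, Col1a2 and Col3a1 were also counted among the fibrillar collagens, and their summed level was 201 to 354 CPM in the healthy samples and 542, 8120, 1834 and 3122 CPM in day 7 replicates 1 to 4. Lrat, the vitamin A storage enzyme of stellate cells, stood at 3.46, 1.53, 2.83 and 9.28 CPM in healthy and 10.1, 125, 22.8 and 69.7 CPM in day 7 LSECs, with the same order of day 7 samples as Col1a1. The desmin gene Des had the same order, at 3.83, 43, 10.5 and 16 CPM. Without day 7 replicate 2, 8 of the 20 were called, and 13 of the 24 genes of collagens and collagen-modifying enzymes. The injury macrophage sum was 694 to 747 CPM in healthy and 2247 to 8901 CPM in day 7 samples, and the sum of 17 general macrophage and Kupffer cell markers was 892 to 3599 CPM and 7032 to 12420 CPM. A sum follows its most abundant members, and the median log2 fold change of these 17 was 0.20, with 14 not called. Of those 17 markers 3 rose, Lyz2 at 3.26 ± 0.61, Ctss at 2.29 ± 0.58 and Cd68 at 1.99 ± 0.48 (adjusted p = 0.0142, 0.0494 and 0.043). Lyz2 was called in 7 of the 8 fits that left out 1 sample, and Ctss and Cd68 in 1 of the 8 each. Clec4f, a defining marker of resident Kupffer cells, was at 58.9, 492, 554 and 461 CPM in healthy and 109, 138, 222 and 349 CPM in day 7 samples, and the pan-leukocyte gene Ptprc at 39, 109.6, 94.7 and 36.9 CPM in healthy and 134, 154, 143 and 134 CPM in day 7 samples. Neither was called (adjusted p = 0.391 and 0.259). The sort was gated against F4/80 and, in the methods, CD45, and how far this removed macrophages and leukocytes was not tested. No monocyte and neutrophil marker (15 tested), lymphocyte and dendritic cell marker (20) or cholangiocyte marker (8) was called. Of 6 mesothelial markers 1 rose, Wt1, a transcription factor that stellate cells can also carry, at 4.44 ± 0.67 (adjusted p = 0.00585). The part of carried-over stellate cells and macrophages in the rises of matrix, lysosomal and lipid genes was not tested.

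Hepatocyte RNA differed between single samples. The sum of 20 hepatocyte markers was 529, 507, 862 and 18930 CPM in healthy replicates 1 to 4 and 1552 to 11590 CPM at day 7, and no marker was called. Without healthy replicate 4, 14 of the 20 were called higher at day 7. In 2 called falls that sample stood far above the other healthy samples. Mup7, one of a family of near-identical urinary protein genes of hepatocytes whose reads cannot be cleanly assigned, was at 5.24, 7.31, 14.6 and 445 CPM in healthy and 3.72, 2.63, 0.287 and 1.59 CPM in day 7 samples, and it was called in none of the 8 fits that each left out 1 sample. Cyp1a1 was at 4.49, 5.92, 6.69 and 23.5 CPM and 1.59, 1.4, 1.96 and 2.93 CPM and was called in 6 of the 8 such fits.

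**Figure D3:**
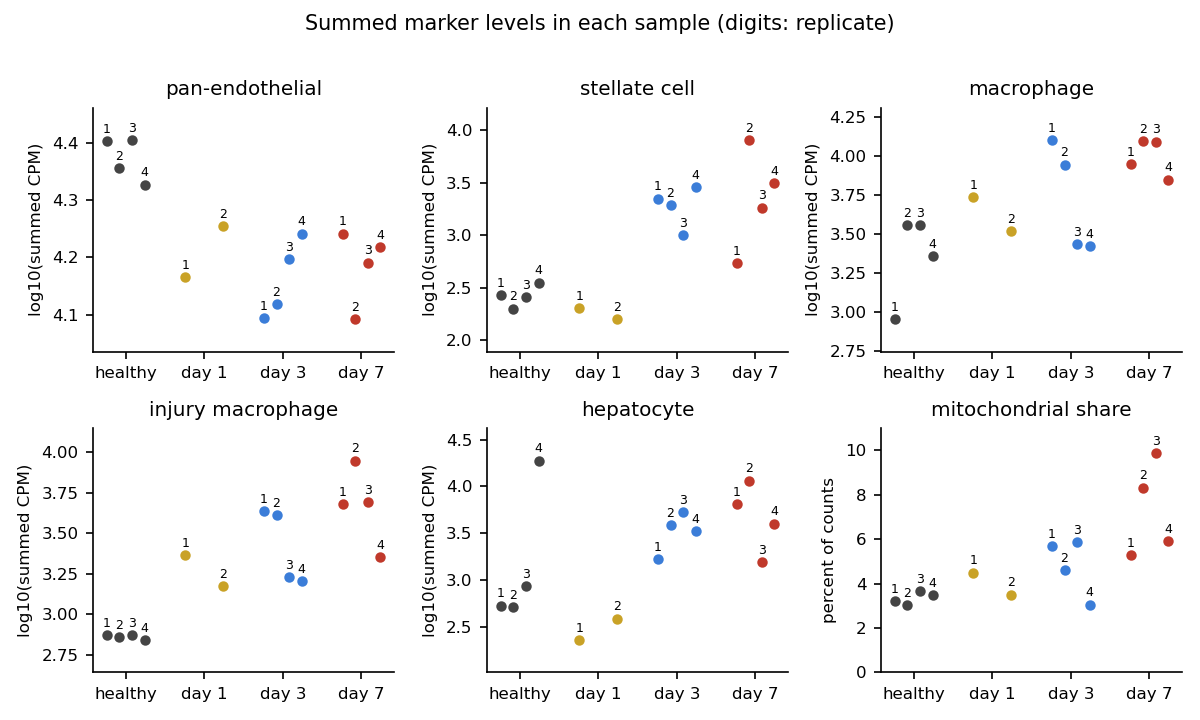
The first 5 panels plot, for each sample, the summed CPM of a marker list on a log10 axis, and the last panel the percent of counts on mitochondrially encoded genes on a linear axis; digits give the replicate. Stellate and injury macrophage sums lie higher and the pan-endothelial sum lower in every day 7 sample than in every healthy sample, and healthy replicate 4 stands apart in hepatocyte markers.

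Several of the called falls were abundant genes of the endothelium. The summed level of 17 pan-endothelial and LSEC markers was 21230 to 25410 CPM in healthy and 12360 to 17440 CPM in day 7 samples, without overlap. In such bulk samples fewer endothelial cells and less RNA per cell cannot be told apart. The median of these markers was -0.54, with 2 falling, none rising and 5 within 2-fold, and with the 8 samples alone 7 were called lower. Gpihbp1 (chromosome 15, 75596628 to 75599481), which anchors lipoprotein lipase to capillary endothelium, was among the most abundant called genes. It was at 4622, 3279, 3060 and 2523 CPM in healthy and 1185, 764, 1340 and 1229 CPM in day 7 LSECs, or 33.5% of healthy (95% interval 21.7% to 51.8%, adjusted p = 0.014). The fall was not called at day 3, when the samples were at 2516, 2800, 1873 and 1208 CPM. Plpp1, a lipid phosphatase at the cell surface, stood at 1954, 1334, 1501 and 1765 CPM in healthy, 823, 1047, 705 and 531 CPM in day 3 and 837, 406, 443 and 625 CPM in day 7 LSECs, 35.3% of healthy at day 7 (adjusted p = 0.0116). Egfl7, a matrix protein that endothelial cells secrete, was chosen after its values were seen and was at 44% of healthy (1139, 863, 798 and 796 CPM against 443, 291, 438 and 411 CPM, adjusted p = 0.0101). The 4 day 7 samples of each of these 3 genes lay below all healthy samples.

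Of 23 VEGF, angiopoietin and Notch receptors and partners 3 fell, none rose and 7 lay within 2-fold, and with the 8 samples alone 9 were called lower. Tek, the angiopoietin receptor, was at 458, 488, 505 and 499 CPM in healthy and 258, 189, 293 and 301 CPM in day 7 LSECs (-0.91 ± 0.20, adjusted p = 0.0301). S1pr1, the sphingosine-1-phosphate receptor that keeps vessels quiescent, was at 197, 231, 221 and 188 CPM and 132, 111, 124 and 146 CPM (-0.71 ± 0.17, adjusted p = 0.0394), after a called rise at day 1 to 608 and 599 CPM. Flt1 lay within 2-fold, at -0.36. For Kdr, the main VEGF receptor, the day 7 value of -0.52 was not called (adjusted p = 0.272) and its interval of -1.08 to 0.04 crossed the bound. At day 1 it had fallen by 1.71 on the log2 scale (adjusted p = 0.0131). The junction genes Esam and Cav2 fell by 0.91 and 1.20 on the log2 scale (adjusted p = 0.0261 and 0.0286), while Cdh5, the VE-cadherin gene, lay within 2-fold at 0.13. Tek was called in 1 of the 8 fits that left out 1 sample, Esam in 1 of the 8, Cav2 in 2 and S1pr1 in 0 of the 8. Of the 26 capillarization and junction genes these 2 fell and 1 rose, and with the 8 samples alone 8 were called lower. The 1 was Sparcl1, a matricellular gene of the same list, which rose from 6.87, 6.39, 10.4 and 8.22 CPM to 18.2, 203, 44.5 and 94 CPM (3.50 ± 0.59, adjusted p = 0.00961), in the same order of day 7 samples as Col1a1.

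Of 27 angiocrine and zonation genes 1 rose and 1 fell, beside 2.19% called higher and 0.992% called lower over all tested genes. Of the 27, 7 lay within 2-fold. The median was -0.47, and 8 were called lower with the 8 samples alone. Of the 27, 10 lay lower in every day 7 than in every healthy sample. Over all tested genes 20.8% had no overlap, in either direction. Hgf, the hepatocyte growth factor gene, was at 27.4, 26, 26.4 and 33.9 CPM in healthy and 47.7, 142, 67.2 and 112 CPM in day 7 LSECs (1.70 ± 0.32, adjusted p = 0.0161). Its order of day 7 samples was that of Col1a1, and it was called in 4 of the 8 fits that left out 1 sample. Which cells carried this rise was not tested. Dkk3, a secreted protein of the Dickkopf family, went from 123, 100, 107 and 119.6 CPM to 37.5, 54, 25.6 and 42.5 CPM (-1.49 ± 0.28, adjusted p = 0.0148). The neurotrophin Ntf3 (chromosome 6, 126101412 to 126166910) was among the strongest falls, at 51.1, 39.8, 47.7 and 61.7 CPM in healthy and 8.72, 10.7, 6.22 and 13.6 CPM in day 7 LSECs, 19.6% of healthy (adjusted p = 0.00961). It was already low at day 1 (9.01 and 8.57 CPM) and day 3 (15, 12.8, 5.13 and 4.03 CPM). Klhdc8a, a gene of the kelch family, fell to 1.4, 0.993, 1.46 and 1.65 CPM from 8.35, 5.77, 6.13 and 9.94 CPM (-2.46 ± 0.43, adjusted p = 0.0109). Pcp4l1 fell by 1.99 and Car8, a carbonic anhydrase relative without enzyme activity, by 1.64 (adjusted p = 0.00773 and 0.019). Other falls named by the rule were Mlf1, Zbtb2, Calr3, Exoc3l4, the adenosine deaminase Ada and Wscd1, with log2 fold changes of -1.87, -1.82, -1.68, -1.62, -1.55 and -1.52 (adjusted p = 0.0499, 0.0416, 0.0192, 0.0231, 0.0277 and 0.0256). In the same order they were called in 2, 2, 5, 4, 3 and 2 of the 8 fits that left out 1 sample. Calr3 and Exoc3l4 were also lower at day 7 than at day 3, with log2 fold changes of -1.50 and -1.60 (adjusted p = 0.0409 and 0.0323). At day 3 they were at -0.18 and -0.02 against healthy, neither of them called.

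Several signalling and stress genes fell as well. Selenop, the plasma selenium carrier, was at 29160, 25970, 28330 and 21920 CPM in healthy and 18350, 8158, 9428 and 10160 CPM in day 7 samples (-1.19 ± 0.26, adjusted p = 0.0286). It was called in 2 of the 8 fits that left out 1 sample. The phosphatase Dusp1 and the kinase Sgk1, both glucocorticoid and stress responsive, fell to 51.1% and 43.4% of healthy (adjusted p = 0.0136 and 0.0138). Dusp6, a phosphatase that is induced by ERK signalling and was chosen after its values were seen, was at 368, 347, 364 and 482 CPM and 207, 149, 119.8 and 162 CPM (-1.29 ± 0.19, adjusted p = 0.00481). Of 28 immediate early and heat shock genes 2 fell, Dusp1 and Atf4, and 4 lay within 2-fold, and with the 8 samples alone 6 were called lower. Gadd45g was the 1 called gene of 20 p53 and growth arrest genes, at -1.12 ± 0.25 (adjusted p = 0.0293), with 10 within 2-fold. Among 37 chemokine, cytokine and adhesion genes 6 rose and 1 fell. Without day 7 replicate 2 only 1 rise was called, and with the 8 samples alone there were 9 rises and 5 falls. The fall was Il1a, at 2769, 2320, 1543 and 1333 CPM in healthy and 897, 433, 885 and 1037 CPM in day 7 LSECs (-1.29 ± 0.28, adjusted p = 0.0279). The rises included the interleukin 1 receptor antagonist Il1rn at 3.10 ± 0.62, Cxcl14 at 3.54 ± 0.55 and Cxcl12 at 3.22 ± 0.67 (adjusted p = 0.0189, 0.00698 and 0.0232). Cxcl12 had the same order of day 7 samples as Col1a1, at 14.4, 210.4, 49.9 and 111 CPM. Of 31 guidance and neurotrophin genes 6 rose and 1, Ntf3, fell, and without day 7 replicate 2 there were 4 rises. Reln, a secreted guidance protein that stellate cells also make, was at 6.2, 5.82, 7.45 and 9.42 CPM in healthy and 11.3, 161, 69.2 and 129 CPM in day 7 samples (3.68 ± 0.62, adjusted p = 0.00961). The axon guidance receptor Robo2 and the adhesion molecule Ncam1 rose by 4.49 ± 0.68 and 4.96 ± 0.86 (adjusted p = 0.00612 and 0.0105). In all 3 the order of day 7 samples was that of Col1a1, and what sets this order was not tested.

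Whether the genes that define LSECs had returned was not resolved for many of them. Among all genes tested, 2.19% were called higher, 0.992% lower and 26.4% lay within 2-fold. Of 21 scavenger and lectin receptors 3 rose, none fell and 7 lay within 2-fold, and with the 8 samples alone 3 were called lower as well. Stab2 was at 1954, 1860, 1865 and 1577 CPM in healthy and 1308, 1266, 1785 and 1716 CPM in day 7 LSECs, with an interval of -0.81 to 0.29, and Stab1 had one of -0.80 to 0.38. Lyve1, the hyaluronan receptor of sinusoids, was at 363, 381, 534 and 271 CPM in healthy, 3020 and 3397 CPM in day 1 and 682, 473, 455 and 680.3 CPM in day 7 LSECs (adjusted p = 0.168 at day 7). The 3 rises were Colec12 at 1.73 ± 0.29, Lrp1 at 2.68 ± 0.55 and Cd14 at 1.56 ± 0.36 (adjusted p = 0.00961, 0.0207 and 0.0358). Of 49 tested genes that the study used to describe healthy LSECs 5 rose, none fell and 17 lay within 2-fold, and of 15 that it used for damaged LSECs 1 rose and 1 fell. The study took both lists from single cells of human livers, and it picked a shorter healthy signature within the first with these mouse samples, so for that signature the direction is not independent evidence. The 5 rises were Timp1, Reln, Ccl9, Cd14 and Ctsd, which also stand in the matrix, stellate, chemokine, scavenger and lysosomal lists. With the 8 samples alone 7 of the 49 were called higher and 9 lower, and of the 15 genes 1 higher and 4 lower. Of the 49, 10 lay lower in every day 7 than in every healthy sample and 10 lay higher, and the median was -0.02. Over all tested genes 20.8% had no overlap, in either direction. None of the 10 lower genes passed the test. Clec4g was at 6517, 4875, 5370 and 4639 CPM in healthy and 3833, 2102, 2504 and 2649 CPM in day 7 LSECs (adjusted p = 0.0622), with a log2 interval of -1.50 to -0.39. Plpp3 was at 3320, 3735, 3724 and 3183 CPM in healthy and 1847, 1444, 1667 and 1951 CPM in day 7 LSECs (adjusted p = 0.0526). The mannose receptor Mrc1 was at 1569, 1474, 1589 and 1553 CPM in healthy and 1162, 728, 904 and 962 CPM in day 7 LSECs (adjusted p = 0.0753). In these 3 genes no day 7 sample reached the lowest healthy sample. Oit3 and Npl had adjusted p = 0.0816 and 0.0697. With the 8 samples alone these 5 genes passed, at adjusted p = 0.031, 0.0139, 0.0286, 0.0378 and 0.0441, and DESeq2 gave 0.00966, 0.00669, 0.0211, 0.0212 and 0.0217. Among other genes of the study's description, the endocytic adaptor Dab2 and the genes Phactr2 and Snx5 lay within 2-fold at -0.42, -0.25 and -0.39. The orphan receptor Gpr182 and the VEGF co-receptor Nrp1 were at -0.53 and -0.78, and the lectins Cd209f and Cd209g at -1.21 and -1.64, none of them called or within 2-fold (adjusted p = 0.319, 0.155, 0.276 and 0.184). Of these 4 Nrp1 passed with the 8 samples alone (adjusted p = 0.0223). The nuclease Dnase1l3 and coagulation factor F8, both abundant in LSECs, lay within 2-fold at -0.49 and -0.52. Vwf and Fabp4, which mark capillary-like endothelium, were at 1.32 and -0.47 (adjusted p = 0.244 and 0.483), with intervals of -0.02 to 2.65 and -1.26 to 0.31.

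No endothelial transcription factor was called with all 14 samples, and 5 were called lower with the 8 samples alone. Of 30 tested 14 lay within 2-fold at day 7, with a median of -0.27, while at day 3 the median was -0.56 and 9 were lower. Maf, a transcription factor of sinusoidal identity, was at 813, 602, 692 and 655 CPM in healthy, 428, 309.5, 517 and 412 CPM in day 3 and 676, 590.4, 785 and 609.9 CPM in day 7 LSECs, and its day 7 interval was -0.44 to 0.33. Gata4, the master factor of the sinusoidal fate, was at 239.7, 294, 328 and 295 CPM and 114, 160.3, 169 and 196 CPM, lower in every day 7 sample but not called (adjusted p = 0.175, interval -1.59 to -0.12). With the 8 samples alone its adjusted p was 0.0211. The flow-responsive factor Klf2 was at 2196, 2847, 1929 and 2123 CPM in healthy, 348, 266, 687 and 1017 CPM in day 3 and 483, 956, 1580 and 1632 CPM in day 7 LSECs. All 4 day 7 samples were below the healthy ones and replicate 1 was lowest, but the difference was not called (adjusted p = 0.21).

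**Figure D4:**
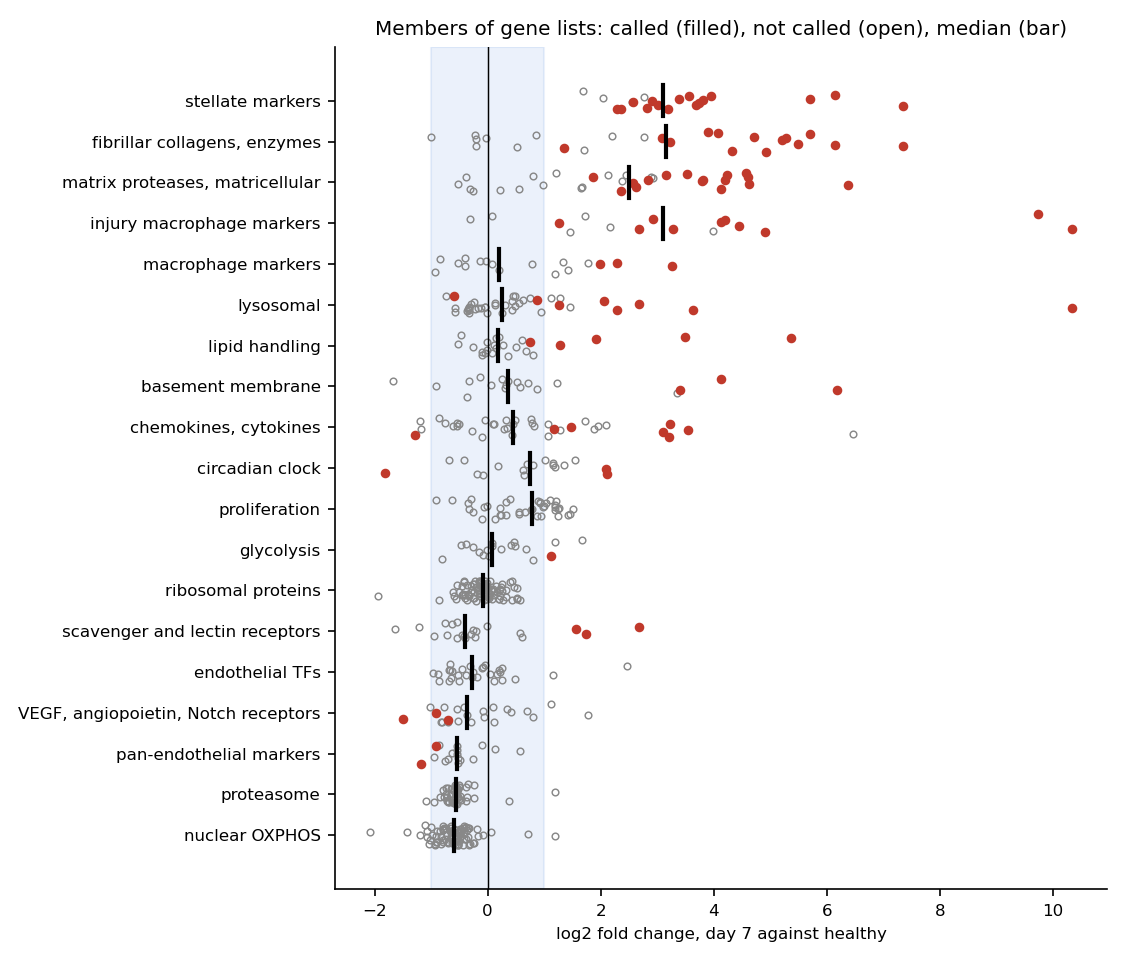
Each point is a gene of the list named on the y axis and its position is the log2 fold change at day 7 against healthy LSECs; filled points were called, open points were not, black bars are medians and the shaded band is 2-fold. Stellate, fibrillar collagen, matricellular and injury macrophage lists lie to the right with medians of 2.51 to 3.15, whereas ribosomal, glycolysis and transcription factor lists centre between -0.27 and 0.08 and pan-endothelial, proteasome and oxidative phosphorylation lists between -0.60 and -0.54.

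Genes of shared cell machinery gave few calls. Of 88 cytosolic ribosomal protein genes none was called and 44 lay within 2-fold, with a median of -0.08 at day 7 after 0.70 at day 3. Glycolysis genes had medians of 0.93 at day 1, 0.72 at day 3 and 0.08 at day 7, with 8, 9 and 1 genes called higher and 11 of 19 within 2-fold at day 7. Ldha, Gapdh and Pkm lay within 2-fold, at -0.01, 0.08 and 0.03. The gene called at day 7 was hexokinase 2 (Hk2) at 1.12 ± 0.26 (adjusted p = 0.0367), and it was called in 1 of the 8 fits that left out 1 sample. Proteasome subunits had a median of -0.56 with none of 48 called, and nuclear-encoded oxidative phosphorylation genes a median of -0.60 with none of 81 called. Of these genes 34 and 59 lay lower in every day 7 than in every healthy sample, where 20.8% of all tested genes had no overlap in either direction. With the 8 samples alone 30 and 41 of these genes were called lower, so whether they had returned was not resolved. Mitochondrially encoded genes took 5.28% to 9.87% of counts in day 7 and 3.04% to 3.65% in healthy samples, a mean of 7.35% ± 2.13 against 3.35% ± 0.27 (SD, n = 4 each; exact permutation test, two-sided p = 0.0286, the smallest that 4 against 4 allows). Of 37 such genes 2 rose, the ribosomal RNAs mt-Rnr1 at 1.58 ± 0.39 and mt-Rnr2 at 1.32 ± 0.33 (adjusted p = 0.0438 and 0.0486), each called in 1 of the 8 fits without 1 sample. mt-Rnr2 was at 15310, 13640, 17090 and 12680 CPM in healthy and 25460, 43980, 49840 and 27380 CPM in day 7 samples. Among the transcripts of mitochondrial proteins mt-Nd1, mt-Nd2 and mt-Nd5 lay within 2-fold, at 0.19, 0.11 and 0.49.

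Few acute stress and defence genes were called. Of 32 interferon-stimulated genes none was called and 12 lay within 2-fold, among them Ifi44 and Oasl2 at 0.10 and 0.13. Of 19 MHC and antigen presentation genes none was called and 8 lay within 2-fold, with the class I genes H2-D1 and H2-K1 at -0.51 and -0.55. With the 8 samples alone 5 of the 19 were called lower, H2-D1 and H2-K1 among them (adjusted p = 0.0464 and 0.0405, and 0.0181 and 0.0135 in DESeq2). The interval of both lay within 2-fold. The early response factors Egr1 and Klf6 and the chaperone Hspa8 lay within 2-fold at -0.43, -0.03 and -0.29, as did the growth arrest genes Cdkn1a, Btg2 and Gadd45b at -0.28, -0.35 and 0.21. Of 23 oxidative stress, metal and iron genes 1 rose, the secreted peroxidase Gpx3 at 2.27 ± 0.41 (adjusted p = 0.0124), and 8 lay within 2-fold, including ferritin light chain (Ftl1) at 0.25 and the iron exporter Slc40a1 at -0.53. Chitinase-like and resistin-like genes, of which 7 were tested, had medians of 6.12 at day 1, 3.33 at day 3 and 1.43 at day 7, and none was called or within 2-fold at day 7.

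Coagulation genes included further rises. Of 29 complement and coagulation genes 4 rose, none fell and 6 lay within 2-fold. Without healthy replicate 4 there were 11 rises and without day 7 replicate 2 there were 2. Among them were Plat, the tissue plasminogen activator, at 2.16 ± 0.46 (adjusted p = 0.0253), the complement receptor C3ar1 at 2.33 ± 0.43 and the transglutaminase F13a1 at 2.73 ± 0.53 (adjusted p = 0.0138 and 0.017), both of which macrophages carry. Of 12 erythroid and platelet markers 1 rose, Itga2b at 0.99 ± 0.22 (adjusted p = 0.0323), called in 1 of the 8 fits that left out 1 sample.

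Of 57 cytochrome P450 genes 1 rose, 2 fell and 3 lay within 2-fold, but without healthy replicate 4, the sample high in hepatocyte markers, 15 were called higher. Their median log2 fold change was -4.70 at day 1, -1.09 at day 3 and 0.01 at day 7, where the fits that left out a sample or changed a setting ranged from -0.28 to 2.79, and the hepatocyte marker sum of 226 and 386 CPM at day 1 was lower than in every other sample. Cyp1b1, a form found outside hepatocytes, rose from 0.419, 0.388, 0.385 and 0.755 CPM to 1.24, 9.34, 1.76 and 4.49 CPM (3.11 ± 0.67, adjusted p = 0.0261), and Cyp2j9 fell with Cyp1a1, at -1.16 ± 0.26 (adjusted p = 0.0292). Of 16 carbonic anhydrase genes Car4 rose, Car8 fell and 3 lay within 2-fold. Car4 was at 0.0798, 0, 0 and 0 CPM in healthy and 6.72, 0.797, 0.198 and 0.931 CPM in day 7 samples (adjusted p = 0.0445) and was called in 0 of the 8 fits that left out 1 sample. Car2, the abundant cytosolic form, lay within 2-fold at 0.19.

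Of 18 clock genes 2 rose, 1 fell and 3 lay within 2-fold, and without day 7 replicate 2 no rise was called. Arntl, the BMAL1 subunit that drives the clock, was at 42.4, 50.7, 46.3 and 36.1 CPM in healthy, 16.5, 17.7, 11.5 and 11.1 CPM in day 3 and 6.12, 6.49, 17.8 and 19.5 CPM in day 7 LSECs (-1.81 ± 0.36, adjusted p = 0.0188). The repressor Per3 was at 7.21, 6.3, 6.24 and 18.7 CPM and 57.1, 53.8, 30.6 and 22.4 CPM (2.09 ± 0.42, adjusted p = 0.0204), and Bhlhe41 rose by 2.11 ± 0.43 (adjusted p = 0.0201). The hour of collection is not given in the sources used here, so its part was not tested. Clock and Cry1 lay within 2-fold, at -0.08 and 0.18.

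DNA replication genes peaked at day 3. Of 40 proliferation genes 30 were higher at day 3, none at day 1 and none at day 7, and 13 were lower at day 7 than at day 3. Their median went from -0.72 at day 1 through 1.87 at day 3 to 0.78 at day 7. At day 7, 9 of the 40 lay within 2-fold, beside 26.4% of all genes. With the 8 samples alone 6 of the 40 were called higher at day 7 and 2 lower. Mki67, which marks cycling cells, was at 25.4, 27.6, 48.1 and 13.5 CPM in healthy, 90, 51.8, 186 and 209 CPM in day 3 and 71.8, 116, 86.7 and 52.6 CPM in day 7 LSECs, still above every healthy sample at day 7 (adjusted p = 0.0892, and 0.035 with the 8 samples alone). The genes named here as returned were chosen because they were called at day 3 and within 2-fold at day 7, so their values are a description. Mcm5, a subunit of the replicative helicase, was at 21.7, 27.1, 30.8 and 20.5 CPM in healthy, 60.1, 34.8, 142 and 178 CPM in day 3 and 21.8, 27.5, 23.1 and 23.9 CPM in day 7 LSECs. All day 3 samples lay above the healthy range and the day 7 samples inside it. Gins1, a partner of that helicase, was at 4, 2.38, 2.73 and 2.56 CPM in healthy, 19.7, 13.5, 19.2 and 9.71 CPM in day 3 and 3.19, 5.23, 3.51 and 2.77 CPM in day 7 LSECs. Lig1, Pole, Mcm8, Dscc1, Ctps and Chaf1b, which ligate, copy, unwind, hold, supply and package new DNA, had log2 fold changes of 1.91, 1.78, 1.84, 2.06, 1.83 and 1.80 at day 3 and of 0.10, -0.01, 0.23, 0.09, 0.16 and -0.02 at day 7. Cdkn1c, the p57 inhibitor that holds cells out of the cycle, moved the other way. It was at 62.1, 43.5, 59.3 and 32.1 CPM in healthy, 6.48 and 6.72 CPM in day 1, 10.9, 11.9, 8.57 and 9.99 CPM in day 3 and 39.3, 26.7, 43 and 32.5 CPM in day 7 LSECs.

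The promoters of 3 of these replication genes are shown because the letters TTTNGCGC, a short form of the motif bound by E2F factors of the cell cycle, or their reverse complement GCGCNAAA occur in them. Searched on both strands in 300 bases, 250 before and 50 after each RefSeq start (GRCm38.p6), this motif was present in 1.38% of 32851 promoters. A promoter was listed for 5 of the 10 genes named as returned from day 3 and 3 of the 5 genes had a match, as had 6 of 29 proliferation genes with a promoter (20.7%, against 1.57% of all genes). Capitals mark the matches, 2 of which overlap in Mcm5, beginning 153 and 149 bases before the start.
Mcm5, chr8:75109259-75109558, strand +: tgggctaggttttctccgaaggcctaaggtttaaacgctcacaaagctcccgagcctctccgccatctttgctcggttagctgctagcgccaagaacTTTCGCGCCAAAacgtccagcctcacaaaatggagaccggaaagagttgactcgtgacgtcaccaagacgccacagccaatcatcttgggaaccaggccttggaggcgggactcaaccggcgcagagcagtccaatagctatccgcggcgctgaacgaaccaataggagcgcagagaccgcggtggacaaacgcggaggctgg
Mcm8, chr2:132815891-132816190, strand +: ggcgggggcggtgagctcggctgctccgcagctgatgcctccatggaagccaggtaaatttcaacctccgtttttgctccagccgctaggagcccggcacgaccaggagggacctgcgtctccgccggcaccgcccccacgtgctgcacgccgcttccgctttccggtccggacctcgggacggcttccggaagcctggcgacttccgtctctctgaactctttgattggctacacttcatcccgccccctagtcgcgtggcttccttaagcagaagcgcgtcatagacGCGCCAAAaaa
Lig1, chr7:13278576-13278875, strand +: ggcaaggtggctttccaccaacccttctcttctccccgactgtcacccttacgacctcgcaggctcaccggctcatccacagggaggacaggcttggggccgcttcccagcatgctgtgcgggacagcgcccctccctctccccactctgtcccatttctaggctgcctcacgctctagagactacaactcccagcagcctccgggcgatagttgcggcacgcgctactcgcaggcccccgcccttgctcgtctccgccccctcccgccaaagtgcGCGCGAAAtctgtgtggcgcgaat
A match is a description of these letters and not of factor binding, and Lig1 has further listed starts without one.

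Genes named as returned from day 1 were chosen in the same way and are likewise described without a test. Qsox1, a secreted enzyme that forms disulphide bonds, was at 35, 38.8, 42 and 66.5 CPM in healthy, 486 and 415 CPM in day 1, 44, 61.6, 48.4 and 61.5 CPM in day 3 and 50.7, 65.1, 44 and 40.2 CPM in day 7 LSECs. Cd93, an endothelial receptor of angiogenesis, was at 275, 198, 256 and 199 CPM in healthy, 1820 and 1597 CPM in day 1, 382, 413, 402 and 345 CPM in day 3 and 196, 290.1, 272 and 316 CPM in day 7 LSECs. Most of the fall in both came between day 1 and day 3. The other genes named under this choice had been low at day 1. Itga8, an integrin subunit, was at 135, 109, 151 and 70.7 CPM in healthy, 8.23 and 8.94 CPM in day 1 and 57.8, 85.1, 115 and 113 CPM in day 7 LSECs, and at day 7 only replicate 1 was below the healthy range. The proteoglycan Prelp was at 124, 119.9, 162 and 137 CPM in healthy, 13 and 10.9 CPM in day 1 and 71.6, 194, 122 and 202 CPM in day 7 LSECs. The clock repressor Nr1d1 was at 50.4, 55.5, 89.5 and 57 CPM in healthy, 6.69 and 4.62 CPM in day 1 and 62.6, 40.6, 54 and 63.7 CPM in day 7 LSECs. Htra1, Gamt, Gstm7 and Ncald had day 1 log2 fold changes of -3.29, -3.18, -2.96 and -2.93 and day 7 values of -0.05, 0.15, -0.23 and 0.19.

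**Figure D5:**
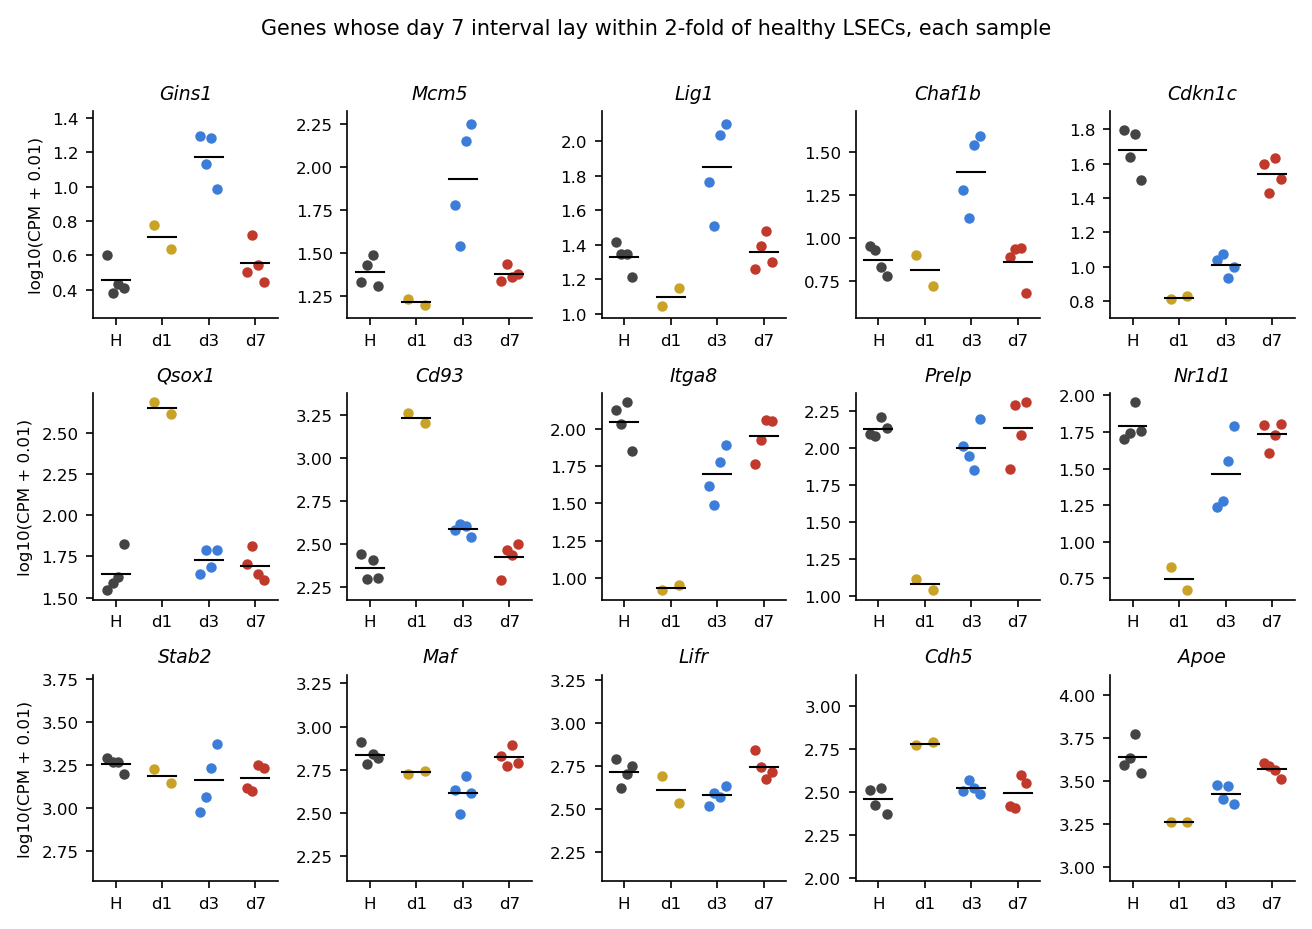
Each point is a sample and each bar a group mean on the log10(CPM + 0.01) scale for genes whose 95% interval at day 7 lay within 2-fold of healthy LSECs, with an axis of its own for each gene. Replication genes peak at day 3, Qsox1 and Cd93 peak and Cdkn1c, Itga8, Prelp and Nr1d1 dip at day 1, and the day 7 points of all 15 genes are level with or close to the healthy points.

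At day 7 Gas6, the ligand of the Axl and Mertk receptors that take up dying cells, lay between its day 3 and its healthy level. It was chosen after its values were seen. It was at 358, 387, 384 and 400.1 CPM in healthy, 55 and 52.6 CPM in day 1, 79.4, 77.8, 79.95 and 85.3 CPM in day 3 and 165, 153, 158 and 195 CPM in day 7 LSECs, with no overlap between any groups. At day 7 it was at 43.9% of healthy (95% interval 36.2% to 53.3%, adjusted p = 0.00179) and above day 3 by 1.06 ± 0.13 (SE, adjusted p = 0.00712). Cd300lg, a receptor of capillary endothelium named after its values were seen, was at 872, 705, 862 and 1002 CPM in healthy, 111 and 189.9 CPM in day 1 and 469.5, 312, 350.1 and 464 CPM in day 7 LSECs (-1.11 ± 0.21, adjusted p = 0.0153), but its gain over day 3 was not called (adjusted p = 0.241). The lectin Cd209b, named in the same way, was at 39.9, 28.7, 35.9 and 35.9 CPM in healthy and 20.5, 8.06, 9.57 and 11.8 CPM in day 7 LSECs (-1.49 ± 0.32, adjusted p = 0.0247). Most genes called between day 3 and day 7 were lower at day 7, 362 of 472, and with day 3 and day 7 samples alone 1 gene was called.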

How the data were processed

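RNA of sorted LSECs was sequenced for 14 samples. The authors trimmed the reads with AfterQC, mapped them with STAR to GRCm38 and assembled them with StringTie, with versions not given in the sources used here, and deposited a table of integer counts, 1 row for each Ensembl gene. The submitters' notes and the methods do not say whether strand was used in counting, so reads of overlapping genes cannot be told apart. The text of the sources describes the reads once as paired and once as single.

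The 54524 genes were named and placed with a GRCm38 annotation (54495 matched), and 9902 had no count in any sample. Genes were filtered with filterByExpr in edgeR 4.0.16 (R 4.3.3; minimum count 10, minimum total 15), scaled by TMM and fitted with the quasi-likelihood model over the 4 group means of all 14 samples. P-values were two-sided and adjusted by the Benjamini-Hochberg method over the 26626 genes tested, at a threshold of 0.05. An SE is the log2 fold change divided by the root of F, and the 95% intervals follow from it. The count of 3 that a library could miss corresponds to 0.0299 to 0.0661 CPM. Intervals and this floor leave PCR duplicates aside. The test was checked on simulated day 7 changes in 40 genes for each fold. Called in the right direction were 2.5% of 2-fold rises and 5% of 2-fold falls. For 4-fold rises and falls it was 57.5% and 60%, and for 8-fold rises 75%. Of 25032 unchanged genes 4 were called. A gene that was not called may thus still differ by 2-fold. Alternatives were other scalings, filters and bounds, the groups compared alone, DESeq2 1.42.0, limma 3.58.1, a replicate block and leaving out each sample.

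Gene lists and marker lists were chosen with earlier results of these data known. Genes named were the 15 highest rises and 15 lowest falls without overlap between groups and with a mean of 5 CPM or more, the 10 most abundant called genes, 10 genes each that were called at day 3 or day 1 and lay within 2-fold at day 7, up to 4 called and 3 within 2-fold per list, and genes the study describes. Gas6, Dusp6, Cd300lg, Cd209b, Olr1, Rragd, Egfl7, Clec4f, Ptprc, Lyve1, Klf2, Gata4, Lrat and Des were named after their values were seen, and so were Ctsk and Atp6v1h. Some genes that the rule takes are not reported here. Promoters came from RefSeq (GRCm38.p6).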

Additional observations from a re-analysis of the deposited data

Results flagged for a closer look

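In each group of 4 samples the gap from the highest or lowest sample to its neighbour was compared with the whole range of the group, for every gene named with its values and for the marker sums. Of 376 groups 30 had a sample that stood apart at Dixon's 95% limit, and chance alone gives about 1 in 20.

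Healthy replicate 4 stood apart most often. Its hepatocyte marker sum was 18930 CPM, beside 507 to 862 CPM in the other healthy samples. It was also high in Mup7 at 444.9 CPM, Cyp1a1 at 23.52 CPM, Fn1 at 26.59 CPM, Cxcl12 at 21.27 CPM, Per3 at 18.7 CPM, Cyp1b1 at 0.7554 CPM and Dusp6 at 482.0 CPM, and low in Flt1 at 490.0 CPM and Snx5 at 274.6 CPM. The part of hepatocyte RNA in these values was not tested, and Fn1, Cxcl12, Per3 and Cyp1b1 rose at day 7 with this sample included.

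Among the other healthy samples, replicate 1 was high in Cd109 at 0.03992 CPM, Car4 at 0.07984 CPM and Mlf1 at 64.33 CPM and low in Vcan at 0.1098 CPM. Replicate 2 was high in Il1rn at 4.735 CPM and Hspa8 at 1802 CPM and low in Ltbp2 at 0.05874 CPM and Oasl2 at 61.83 CPM. Replicate 3 was high in Col1a1 at 4.41 CPM, Mcm8 at 2.143 CPM and Nr1d1 at 89.52 CPM.

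At day 7, replicate 1 was high in Car4 at 6.724 CPM, where the other samples held 0.198 to 0.931 CPM, and in Sgk1 at 1493 CPM, Lamp1 at 1156 CPM and Cd36 at 1025 CPM. Replicate 2 was low in Cyp2j9 at 4.559 CPM and Dab2 at 287.6 CPM. Replicate 3 was high in mt-Nd1 at 2645 CPM, and replicate 4 in P4ha1 at 209.6 CPM and Hspa8 at 1701 CPM.

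Genes named as returned from day 1 or day 3 were left out here. For 7 of the other named genes the difference from healthy LSECs was not the same at day 7 as at day 3. The test was edgeR's quasi-likelihood test of day 7 against day 3. The log2 differences, day 7 minus day 3, were 4.78 for Atp6v0d2, 2.88 for Cpxm1, 1.60 for Rragd, 1.06 for Gas6 and 0.89 for F8, and -1.50 for Calr3 and -1.60 for Exoc3l4. Both comparisons share the same healthy samples.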

How the results depend on the processing

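Calls of day 7 against healthy that could be fitted kept their direction under every alternative, but the number of calls moved with the tool and the samples. At day 7 against healthy, 846 genes became 3156 with the 8 samples alone, 2713 in DESeq2, 7047 in limma-voom with sample quality weights, 435 with a replicate block and 133 at an adjusted p under 0.01, and 193 to 1509 with 1 sample left out. The share of rises went from 68.79% to 75.8% with RLE size factors, 86.8% by library size, 74.1% with mitochondrial genes left out of the scaling, 62.6% with no filter, 72.8% with 10 counts in every sample, 46.0% with the 8 samples alone, 63.3% in DESeq2, 51.0% in limma-voom and 57.0% to 91.1% with 1 sample left out. Genes within 2-fold numbered 11042 with no filter and 1543 with a 1.5-fold bound. At day 7 against day 3, 472 became 287 by library size, 272 without mitochondrial genes in the scaling, 157 with no filter, 1 with these groups alone, 1783 in DESeq2, 6002 in limma-voom, 244 with a replicate block and 26 to 1652 with 1 sample left out. At day 3 against healthy, 1915 became 1108 with these groups alone, 3790 in DESeq2, 7265 in limma-voom and 946 to 3314. At day 1, 1080 became 2327, 2836 and 4308 in the same order, 594 with a replicate block and 164 to 810. The mitochondrial difference of 4.00 percentage points ranged from 3.16 to 4.69. The cause of these shifts was not tested.

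Same-numbered samples did not deviate together, with correlations of -0.173 to 0.046, so the replicate block is no pairing of mice. Of 100 named genes that were called, 72 passed in every alternative that tested them and 43 in all 8 fits without 1 sample, and none of them turned direction. Alternatives for day 1 and day 3 and the mitochondrial share without 1 sample were added after the data were seen. Genes under a few CPM have wide intervals at this number of samples, which limits what could be placed within 2-fold.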
